A study of Arabidopsis thaliana with 8 samples.

Results

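The transcripts described here are 129 of 22746 Arabidopsis thaliana probe sets that were well expressed in cell culture and moderately higher on fum arrays than on met arrays. They were chosen by their measured signals. The mean log2 signal of fum minus met lay from 0.5 to below 1, the lowest fum array lay above the highest met array, and the met mean was at least 100 signal units. Of 133 probe sets that met these thresholds, 4 were left out by name, which were AT3G15980, AT2G21390 and AT1G62020 of the COPI vesicle coat and AT4G01610, a cathepsin B gene. The fum against met difference and the separation of the groups are therefore properties of the choice, and they are given as a description with no test.

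RNA was extracted from cultured cells of the Landsberg erecta background (Ler, stock code NW20), and the labels mention no transgene. Titles name 4 arrays fum and 4 arrays met, all grown at 24 °C on Murashige and Skoog salts, sucrose and the hormones NAA (an auxin) and kinetin (a cytokinin). The titles explain neither word and call neither group a control, so each difference is fum minus met, and the study as a whole concerns core genes of plant programmed cell death. The labels do not say whether each array had its own culture, so the spread between them may be technical. In RNA from bulk cells, a change in the mix of cells and a change of RNA per cell cannot be told apart.

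Secreted and membrane proteins of plant cells enter the endoplasmic reticulum (ER), where chaperones fold them and enzymes attach sugars. Proteins that fail to fold are drawn back to the cytosol through derlin membrane proteins, tagged with ubiquitin and destroyed, a route called ER-associated degradation. Correctly folded cargo moves on in coated vesicles through the Golgi to the plasma membrane, the vacuole or the cell wall. Clathrin, the exocyst tethering complex and small GTPases with their partners guide later steps of this traffic.

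Of the 129 probe sets, 68 pair with 1 gene each (68 different genes), 1 pairs with several genes and 60 have no gene in the annotation used here. Their fum means ran from 151.1 to 2278 signal units with a median of 312, and their met means from 100.8 to 1548 with a median of 199.1. Signals of different probe sets depend on their probes, so a bright probe set is one with a high signal, not a transcript shown to be more abundant. Log2 differences had a median of 0.62, which is a 1.54-fold ratio of geometric means, whereas the median over all 13647 probe sets tested was -0.0021. Small differences prevailed, with 55 probe sets from 0.5 to below 0.6, 33 from 0.6 to below 0.7 and 11 from 0.9 to below 1. The 60 probe sets without a gene had a median log2 difference of 0.64, and the 68 with 1 gene had 0.61.

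Among 6404 probe sets with a met mean of at least 100, counted without the 4 left out by name, 2.01% met the rule. The share was 2.23% for met means from 100 to below 200 and 0.89% at 1000 or above, where 5 of 562 probe sets were members. The median log2 difference of all probe sets in these same level classes was 0.013 and -0.16, so that members at high signal stood against a group of transcripts that leaned lower in fum. All 4 fum arrays lay above all 4 met arrays in 6.75% of the 6404 probe sets, which is 432 in number, and below them in 10.3%, which is 659. The 6404 and their level classes were chosen by met signal alone, and such a choice can itself favour probe sets that are lower in fum. Of all probe sets tested, 6.04% had every fum array above every met array. With the sign turned and the floor put on the lower group, a fum mean of at least 100, 91 probe sets were 0.5 to below 1 lower in fum, and with the floor kept on met there were 119. Outside the upper threshold, 18 probe sets with a met mean of at least 100 were at least 1 higher in fum. With the same floor 15 were at least 1 lower, and in both counts the groups did not overlap. The floor thus lay on the lower group for the 18 and on the higher group for the 15.

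**Figure D1:**
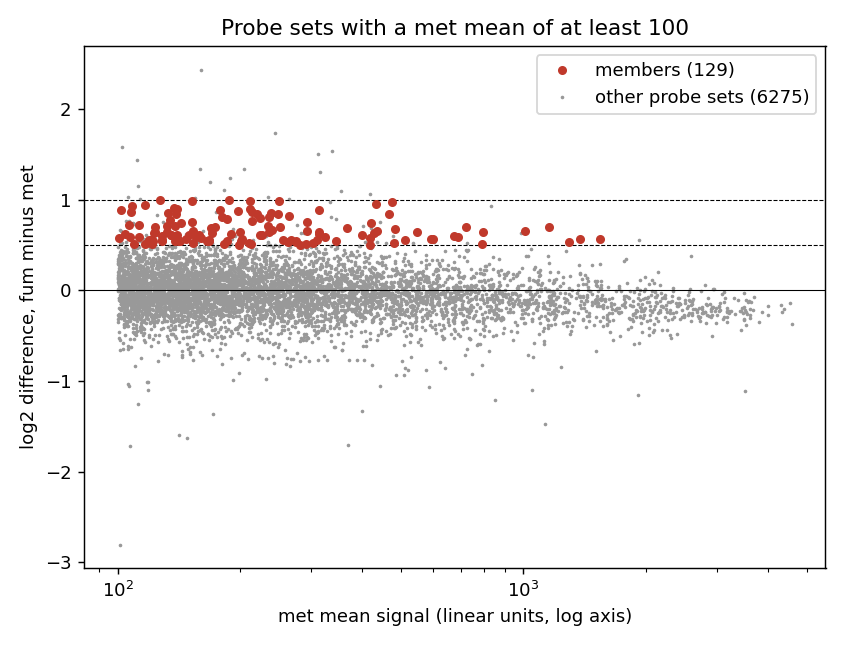
Log2 difference (fum minus met) against the met mean signal (log axis) for 6404 probe sets with a met mean of at least 100, with dashed lines at 0.5 and 1. The 129 members (red) lie between the lines by choice, and grey points between the lines are the 67 probe sets whose groups overlapped. The 4 left out by name are not among the 6404.

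Other thresholds would have taken close neighbours. At the low end of the difference AT5G42090 lay inside at 0.501, and EULS3 lay outside at 0.498. At the high end AT1G75280 lay inside at 0.991, and AT4G29520 lay outside at 1.003. DER2.1 had a met mean of 100.8 and was inside, whereas ATSIK had 99.1 and was outside. XTH18 was a member by a margin of 1751.1 for its lowest fum array over 1749.9 for its highest met array. ATERDJ2A, a J protein of the ER membrane, had a log2 difference of 0.72 but its lowest fum and highest met arrays both read 189.9, so it was not a member.

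Genes for protein folding, repair and ER-associated degradation formed the largest role group that the gene names allow, with 10 of the 68 genes. This grouping was made after the members were known, and it gets no test. Differences in the group were small, with a median of 0.55 on the log2 scale and 9 genes that lay between 0.50 and 0.58. The exception was AT4G16660, an Hsp70 family chaperone, which read 323.5, 303.7, 368.4 and 320.8 on fum replicates 1 to 4 against 164.6, 215.9, 159.9 and 174.6 on met replicates 1 to 4. Every fum array of this gene lay at least 1.41-fold above the highest met array. Its mean was 329 ± 27.6 in fum and 178.8 ± 25.5 in met, a 1.85-fold ratio, and ± gives the SD over 4 arrays in every mean below.

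ATERDJ3B, a J protein that helps the lumenal Hsp70 BiP fold proteins, lay close to the lower threshold. It read 584.7, 520.8, 662.3 and 602.1 in fum against 420.7, 462, 389.9 and 398.2 in met, a 1.42-fold ratio. Its met arrays were close to each other and its lowest fum array was replicate 2. Of 2 further J-domain genes, whose compartment the names do not give, AT1G76700 averaged 205.8 ± 2.87 in fum and 141.7 ± 16.7 in met, and AT2G38000 averaged 175.3 ± 16.1 in fum and 121.3 ± 13.9 in met.

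Both derlin genes among the members were higher in fum. DER1 read 374.2, 359.9, 435.1 and 399.3 in fum against 193.1, 309.7, 291.8 and 302.4 in met. Its met replicate 1 lay far below the other met arrays, and the log2 difference of 0.54 became 0.38 without it. A second probe set of DER1, too dim to be read, averaged 3.58 in fum and 3.1 in met. DER2.1 read 130.3, 135.1, 197.2 and 141.7 in fum against 98.2, 124, 96.6 and 84.5 in met, with fum replicate 3 above the rest. OS9, a lectin that recognises misfolded glycoproteins in ER-associated degradation, averaged 173.2 ± 15.6 in fum and 119.5 ± 18.8 in met. UBC32, a ubiquitin-conjugating enzyme that acts in the same route, read 365.8, 343.3, 417.7 and 381.1 in fum against 242.9, 326.3, 233.9 and 248.9 in met. Met replicate 2 of UBC32 came within 1.05-fold of the lowest fum array, while the other met arrays were well below.

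AT2G44660, of the ALG6/ALG8 glycosyltransferase family that builds the sugar chain for N-glycosylation, averaged 187.6 ± 15.2 in fum and 128.3 ± 19.4 in met. MSRB3, a methionine sulfoxide reductase that repairs oxidised proteins, averaged 201.9 ± 30.1 in fum and 138.2 ± 20.6 in met. Across the 10 genes, fum replicate 3 was the highest fum array for 8 and met replicate 2 the highest met array for 9. Over the 8 deviations from group means, which all come from the same 8 arrays, pairs of these 10 genes had a median Pearson r of 0.68, from -0.13 to 0.98. The median was 0.62 for the signalling and membrane group, 0.61 for vesicle traffic, 0.42 for redox, 0.38 for cell wall and 0.23 for metabolism. Over all pairs of the 129 members it was 0.35.

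**Figure D2:**
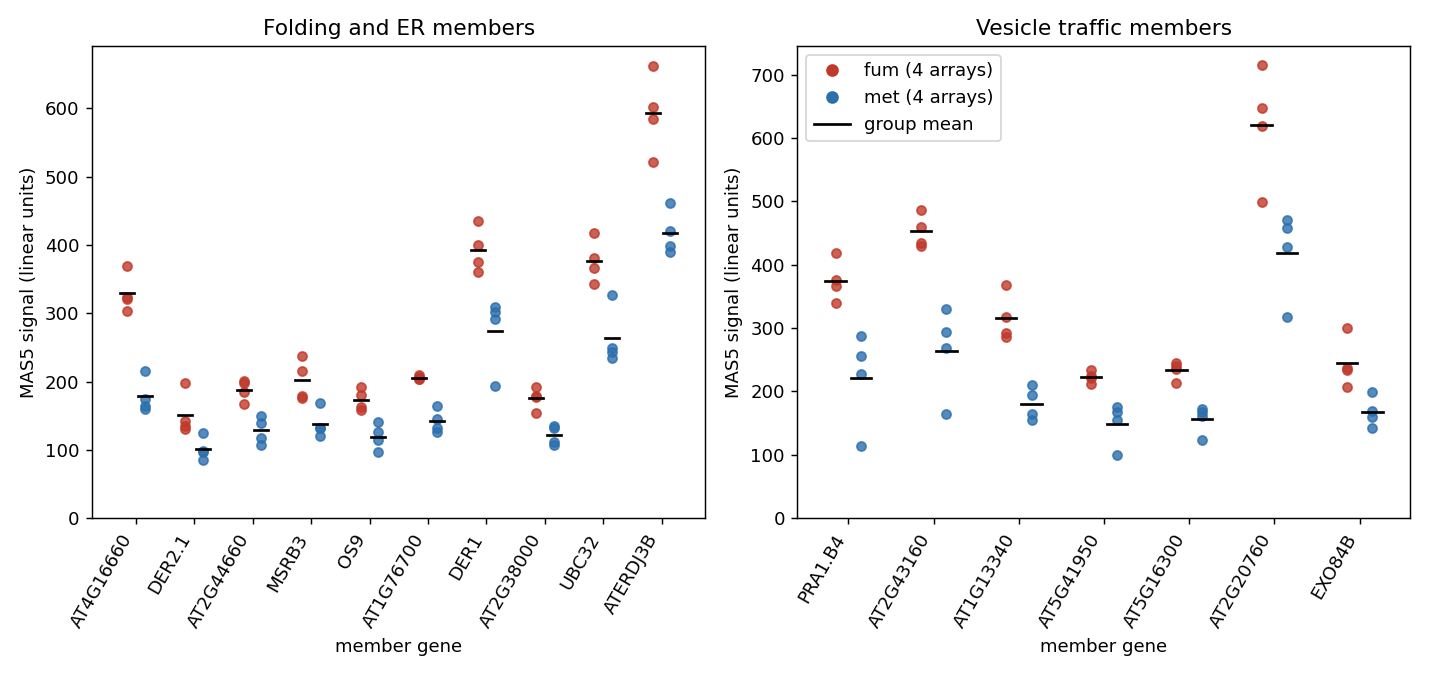
MAS5 signal (linear, from 0) of the 10 folding and ER members and the 7 vesicle traffic members, with 1 point per array, fum red and met blue, and bars at the group means. In each gene all fum points lie above all met points by choice, and several genes have 1 met array close to the lowest fum array.

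Genes of vesicle traffic made up 7 of the 68, with a median log2 difference of 0.61. PRA1.B4, a prenylated Rab acceptor, had the largest difference of them at 0.84. It read 418, 366.5, 339.2 and 376 in fum against 113.2, 227.1, 286.9 and 255.4 in met. Met replicate 1 was far below the other met arrays, and without met replicate 1 its difference was 0.55. AT2G43160, an epsin-like protein with an ENTH domain that binds membranes at budding vesicles, read 434, 429.6, 487.3 and 460.1 in fum against 165.2, 329.8, 268.4 and 293.4 in met. Met replicate 1 was again the lowest array, and the fum arrays lay close together. A second probe set of AT2G43160, too dim for the rule, averaged 52.1 in fum and 31.6 in met, with a log2 difference of 0.66.

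AT1G13340, related to regulators of the Vps4 ATPase that sorts cargo at multivesicular bodies, averaged 316 ± 37.6 in fum and 180.9 ± 25.7 in met. The clathrin light chain gene AT2G20760 averaged 620 ± 89.8 in fum and 418 ± 69.6 in met. EXO84B, an exocyst subunit, averaged 244 ± 39.3 in fum and 167.4 ± 24.1 in met, and its lowest fum array was 1.03-fold above its highest met array. AT5G16300, of the Vps51/Vps67 family of Golgi tethering subunits, averaged 233.6 ± 13.5 in fum and 156.2 ± 22.9 in met. AT5G41950, a tetratricopeptide repeat protein, averaged 222.5 ± 9.19 in fum and 149.3 ± 34.4 in met. Met replicate 1 was the lowest met array for 5 of these 7 genes. Without met replicate 1 the log2 difference was 0.42 for AT5G41950, 0.44 for AT2G20760 and 0.48 for AT5G16300, below the threshold of 0.5, and the rest of the group stayed above it.

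Other genes of the secretory pathway were read from lists of known loci, and for those that are not members the limma test applies, in which 1.47% of all 13647 probe sets were called higher and 1.11% lower at an adjusted p under 0.05. Among probe sets with a met mean of at least 100 the shares were 1.83% and 2.08%. Of the 129 members 85 were called higher, and nothing is read from that count because the same contrast chose them. These 85 are among the 200 probe sets, and the 117 with a met mean of at least 100, that were called higher. The list counts leave members out, so they and the shares above are not like for like. Counts at an unadjusted p below 0.05, here and for the lists below, come with no share over all probe sets, so no enrichment is read from them. That threshold is a weak one in these data. The COPI gene AT5G05010 lay just under it and had an adjusted p of 0.279 (limma). The ER folding list holds 40 loci, of which 9 have a probe set of their own here, so most were not read. In the ER folding list 8 further genes were tested and 0 were called (limma), with 3 at an unadjusted p below 0.05, 6 with a higher fum mean and a median log2 difference of 0.23. The calreticulin gene CRT1b had 0.36 (SE 0.085, adjusted p = 0.0533), with 409 ± 21.8 in fum and 319.5 ± 12.3 in met. ATERDJ2A had 0.72 (SE 0.20, adjusted p = 0.0837) and AT5G07340, a calnexin gene, had 0.22 (adjusted p = 0.232). BZIP60 and BZIP28, transcription factors of the ER stress response, had 0.23 and 0.24 (adjusted p = 0.282 and 0.372). CRT1b passed without met replicate 1 (adjusted p = 0.0442) and when only signals above the 60th percentile were tested (adjusted p = 0.0384). Its adjusted p was 0.241 after median centring, 0.113 without the intensity trend and 0.194 with the replicate block. With array weights CRT1b, ATERDJ2A and BZIP60 passed, but in that setting limma called 1323 probe sets in place of 351. ATERDJ2A and BZIP60 passed in no other setting.

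The COPI coat list holds 14 loci, of which 10 have a probe set of their own. In the COPI coat list, whose subunits form the coat of vesicles that return from the Golgi to the ER, 3 of 9 tested genes were called higher in fum by limma and 0 lower, with 4 at an unadjusted p below 0.05. The 3 are those left out of the members by name, which met every threshold of the rule on the same contrast, so nothing is read from their calls. AT3G15980 averaged 236.7 ± 14 in fum and 142.4 ± 6.90 in met, a log2 difference of 0.73. AT2G21390 had 0.58 and AT1G62020 had 0.59. All 9 had a higher fum mean, with a median of 0.18, but the 3 that met the thresholds are part of both values. The other tested COPI genes had smaller differences, from 0.021 for AT1G30630 to 0.26 for AT1G52360, and did not pass.

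In the COPII coat list, which serves the forward path out of the ER, 0 of 12 tested genes were called (limma), with 4 at an unadjusted p below 0.05. This list holds 18 loci, of which 13 have a probe set of their own. A higher fum mean was found for 11 of the 12, and the median log2 difference was 0.29. The SEC24 gene CEF had 0.42 (adjusted p = 0.0847) and the SEC23 gene AT3G23660 had 0.68 (adjusted p = 0.108). In the list for the ER translocon and signal recognition, 2 of 13 were called higher and 0 lower, and 5 had an unadjusted p below 0.05. The translocon list holds 56 loci, of which 14 have a probe set of their own, so most were not read. AT3G60540, a SEC61 beta gene, had 1.19 (SE 0.15, adjusted p = 0.00327), with 379 ± 34.3 in fum and 169.0 ± 41.5 in met. AT1G29310, a SEC61 alpha gene, had 0.83 (SE 0.11, adjusted p = 0.00337), with a met mean of 63.1 below the floor of the rule. Of the 13, 8 had a higher fum mean and the median was 0.046. Genes of these 4 lists were named for having the smallest p, and for COPI, COPII and the translocon this was done after their values were seen.

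**Figure D3:**
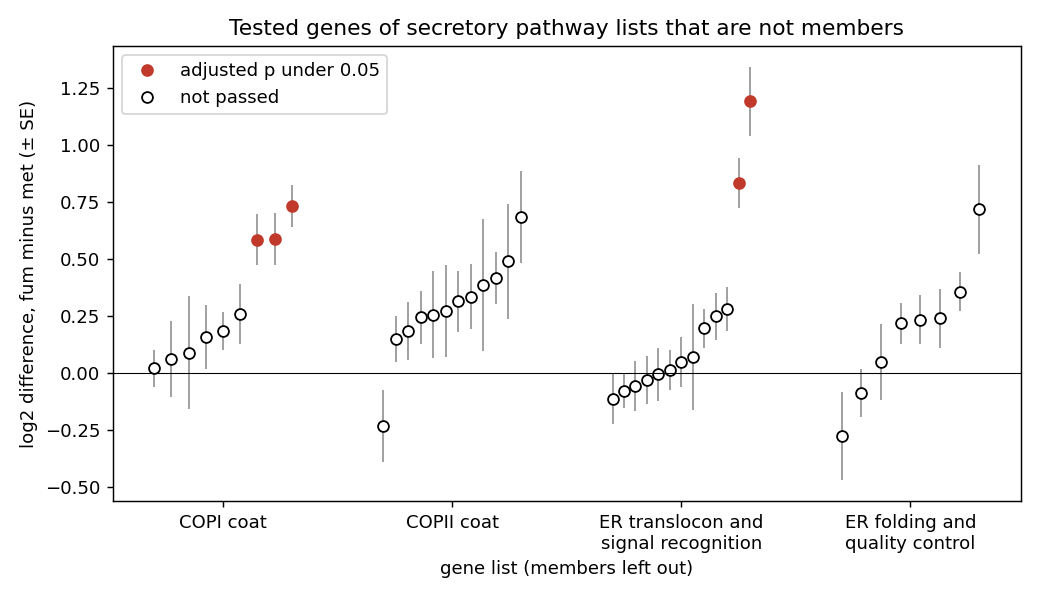
Log2 difference (fum minus met) with SE for tested genes of 4 secretory pathway lists that are not members, filled red where limma's adjusted p was under 0.05. In the translocon list 2 of 13 are filled, in the COPII and ER folding lists 0 are, and the 3 filled COPI genes are those that met the thresholds of the rule and were left out by name.

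Redox and conjugating enzymes were 6 of the 68 genes and held the 3 largest differences among them. AT1G75280, an isoflavone reductase-like protein, read 183.7, 279.8, 262.2 and 296.3 in fum against 118.9, 118.1, 140.3 and 130 in met, a 1.99-fold ratio. The met arrays of AT1G75280 were tight and fum replicate 1 was the lowest fum array. AT5G38900, of the thioredoxin superfamily, read 414, 378.9, 641.2 and 516.9 in fum against 225.4, 366.5, 184.1 and 222.5 in met, a 1.98-fold ratio. Its met replicate 2 nearly reached the lowest fum array. GT72B1, a glucosyltransferase that conjugates foreign compounds such as chlorophenols, read 249.8, 246.6, 346.9 and 358.7 in fum against 120.2, 194.7, 140.5 and 152.2 in met. The fum arrays of GT72B1 fell into a lower and a higher pair, all above met.

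AT2G37540, a short-chain dehydrogenase, had the tightest met values of the group and averaged 193.2 ± 15.6 in fum and 123.6 ± 1.77 in met. AT4G36750, a quinone reductase, averaged 344 ± 43.8 in fum and 227.2 ± 46.0 in met. AT5G16980, a zinc-binding dehydrogenase, averaged 190.8 ± 62.1 in fum and 113.0 ± 19.7 in met, with fum replicates 3 and 4 well above 1 and 2. The UDP-glycosyltransferase list holds 64 loci, of which 51 have a probe set of their own. Of 18 other UDP-glycosyltransferase genes tested, limma called 2 higher and 1 lower, and 4 had an unadjusted p below 0.05. UGT73B5 had 0.87 (adjusted p = 0.0131) and UGT73B4 had 0.78 (adjusted p = 0.0429), with met means of 44.5 and 71.4, below the floor of the rule. UGT84A1, which acts on phenylpropanoid acids, had -0.77 (adjusted p = 0.0390), and UGT78D2, a flavonoid glucosyltransferase, had -0.33 (adjusted p = 0.142). UGT71B1 had 0.50 (adjusted p = 0.294). The call of UGT73B5 was lost when fum replicate 4 was omitted, UGT84A1 passed on 7 arrays only without met replicate 1, and UGT73B4 passed on 7 arrays only without met replicate 2 or 3. After median centring limma's adjusted p was 0.0590 for UGT73B5, 0.0885 for UGT84A1 and 0.118 for UGT73B4. With the replicate block it was 0.0707, 0.126 and 0.0856 for the same genes in that order. Without the intensity trend it was 0.0871 for UGT84A1 and 0.0805 for UGT73B4, and with no filter it was 0.0551 for UGT73B4.

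Cell wall and extracellular proteins gave 6 genes. XTH18 and XTH19, which encode xyloglucan endotransglucosylases that cut and rejoin wall polymers, lie next to each other on chromosome 4 with 0 genes between them. XTH18 read 1957.1, 1763.2, 1875.9 and 1751.1 in fum against 1749.9, 1286.5, 1149.7 and 997.6 in met. XTH19 read 158.5, 157.7, 209.7 and 154.4 in fum against 151.9, 134.4, 113.9 and 85.7 in met. In both genes met replicate 1 almost reached the fum arrays and met replicate 4 was the lowest. Signals of such similar genes may share hybridization, which was not tested.

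AT3G13650, a dirigent protein of the kind that steers lignan coupling, read 861.3, 719.4, 965.8 and 793.4 in fum against 503.3, 497.4, 367.5 and 365.7 in met. Its groups were 1.43-fold apart at the nearest arrays. AT5G06730, a secreted peroxidase, averaged 274 ± 38.5 in fum and 169.9 ± 19.6 in met. AT4G39830, of the ascorbate oxidase family, averaged 342 ± 33.6 in fum and 223.6 ± 22.4 in met. AT5G22850, an aspartyl protease, averaged 227.2 ± 22.9 in fum and 138.7 ± 7.96 in met.

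Metabolic enzymes gave 6 genes. AT2G04400, the indole-3-glycerol phosphate synthase of tryptophan synthesis, read 757.9, 685.3, 1077.8 and 906.4 in fum against 462.4, 647.5, 529.6 and 542.5 in met. Its fum arrays were more widely spread than its met arrays. Of the 22 loci of the shikimate and tryptophan list, 3 have a probe set of their own. Both other tested genes of the shikimate and tryptophan list had lower fum means, and 0 were called by limma, with 1 at an unadjusted p below 0.05. The dehydroquinate synthase gene AT5G66120 had -0.39 (adjusted p = 0.0873) and AT1G22410, for the first enzyme of the shikimate path, had -0.17 (adjusted p = 0.433).

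AT4G24160, an alpha/beta hydrolase with lysophosphatidic acid acyltransferase activity, was clear of overlap and read 740, 653.6, 684.6 and 727.8 in fum against 423, 456.7, 391.3 and 411.2 in met. AT1G68620, also an alpha/beta hydrolase, averaged 266.8 ± 72.2 in fum and 139.8 ± 13.5 in met, and a further one, AT4G12230, had a log2 difference of 0.70. Carbon supply for lipids was represented by ACLA-1, a subunit of the ATP-citrate lyase that makes cytosolic acetyl-CoA, at 242.7 ± 28.3 in fum and 165.5 ± 11.8 in met. FATB, the thioesterase that releases saturated fatty acids from plastid synthesis, stood at 241.6 ± 23.5 in fum and 167.4 ± 35.7 in met.

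Signalling and membrane proteins gave 8 genes. AT1G21550, an EF-hand calcium-binding protein, read 419.6, 327.3, 520.2 and 407.9 in fum against 251.7, 222.8, 206.9 and 164.7 in met, a 1.98-fold ratio. AT4G31000, of a calmodulin-binding family, had 0.54 on the log2 scale, with 177.2 ± 32.2 in fum and 120.5 ± 10.8 in met. AT5G42090 and AT3G09570, both of a family of seven-transmembrane proteins, averaged 397 ± 42.3 and 488 ± 54.0 in fum against 281 ± 35.1 and 324 ± 27.4 in met. AT1G68410, a protein phosphatase 2C, averaged 408 ± 34.4 in fum and 290.3 ± 60.9 in met. AT5G25560, a zinc finger protein with a RING domain, averaged 360 ± 74.3 in fum and 197.3 ± 46.1 in met. AT1G69450, of the ERD4 family, and AT2G04305, a CorA-like magnesium transporter, had differences of 0.60 and 0.52. For all 8 genes fum replicate 3 was the highest fum array.

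The other 25 single-gene members were put in no group, and several were bright. AT5G13200, a GRAM domain protein, had the highest fum signal among single-gene members and read 2087.6, 2008.4, 1886.2 and 2155 in fum against 1607.8, 1381.4, 1252 and 1281.1 in met. AT2G32190, a small cysteine-rich transmembrane protein, read 860.5, 932.7, 1022.4 and 848.2 in fum against 640.2, 479.8, 400.2 and 381.4 in met, a 1.96-fold ratio. The 1 member probe set with several genes, 265670_s_at, covers AT2G32190 and its relative AT2G32210, so it is no separate evidence for AT2G32190. AT5G12010 read 1073.6, 934.6, 889.7 and 1034.9 in fum against 400.5, 710.3, 787.4 and 795 in met, with met replicate 1 far below the others. Its log2 difference of 0.59 became 0.36 without that array.

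AT1G65690, of a family of hydroxyproline-rich glycoproteins, averaged 677 ± 72.5 in fum and 435 ± 90.3 in met, and AT5G01750, a LURP1-related protein, averaged 611 ± 96.1 in fum and 399.9 ± 67.0 in met. BIGYIN, the FIS1A protein that takes part in the division of mitochondria and peroxisomes, read 355, 403.1, 433.6 and 380.1 in fum against 256.1, 240.2, 291.7 and 280.8 in met. NET2D, an actin-binding protein of the Networked family, averaged 284 ± 47.6 in fum and 173.4 ± 14.9 in met. AT3G52640, which encodes nicastrin of the gamma-secretase complex, read 219.3, 226.5, 179.7 and 198 in fum against 108.3, 154.6, 133.9 and 144.9 in met. Its log2 difference was 0.61. A second probe set of AT3G52640, too dim for the rule, averaged 32.1 in fum and 28.4 in met, with a log2 difference of 0.27. AT2G18690 and AT3G49130 had differences of 0.91 and 0.89.

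The widest gap between groups among single-gene members was that of AT2G16900, with 400.7, 381.8, 370.9 and 404.5 in fum against 217.7, 231.5, 223 and 223.6 in met. Its lowest fum array was 1.60-fold above its highest met array. Only probe set 264685_at, with no gene listed, had a wider gap among the 129, at 1.72-fold, with 380.7, 353.6, 380.4 and 373.1 in fum against 149.6, 198, 205.5 and 200.1 in met. The highest fum signal of all members was that of 245956_s_at, also without a gene, with 2278 ± 19.6 in fum and 1548 ± 161 in met. Over all members the lowest fum array exceeded the highest met array by a median ratio of 1.14.

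**Figure D4:**
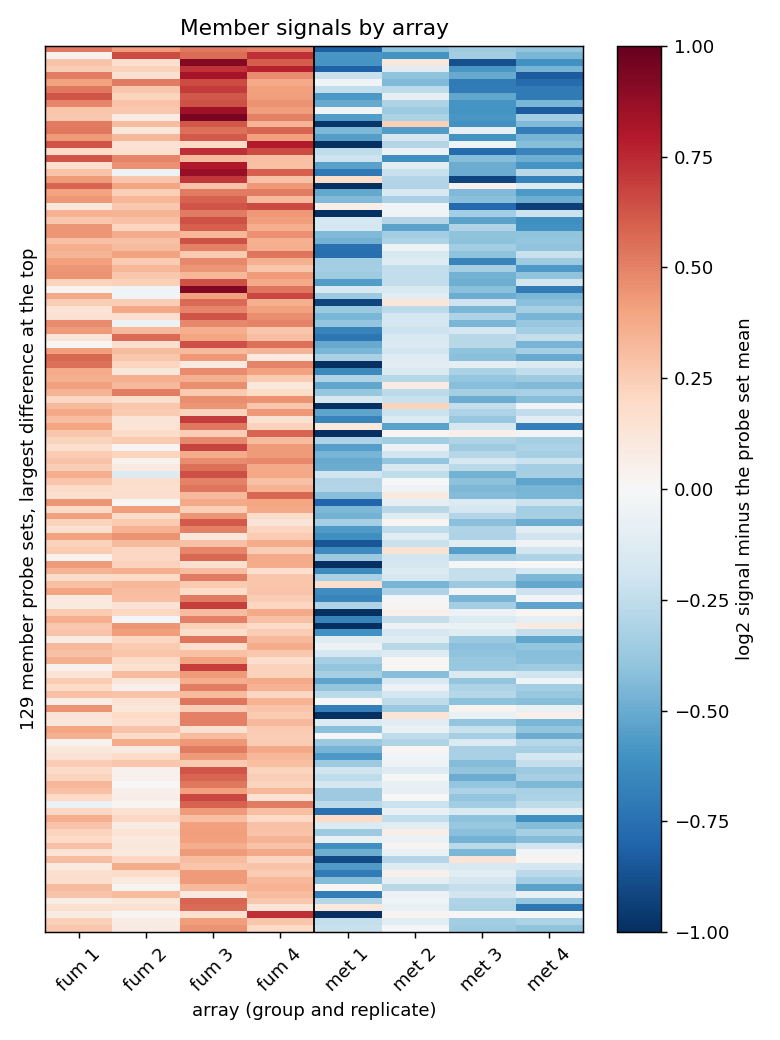
Log2 signal of each of the 129 members (rows, largest difference at the top) on the 8 arrays, as the difference from the probe set's own mean, with the colour scale ending at 1 in either direction. Fum replicate 3 is the reddest column and met replicate 2 the palest of the met columns, while met replicate 1 holds the darkest blue cells.

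The members did not reach the same height on all arrays of a group. Their median signal was 300.4, 291.6, 340.7 and 320.8 on fum replicates 1 to 4, against 171.3, 218.5, 184.2 and 189.9 on met replicates 1 to 4. Fum replicate 3 was the highest fum array for 79 of 129 members and fum replicate 2 the lowest for 67. Met replicate 2 was the highest met array for 83, and met replicate 1 the lowest for 64. Between single arrays, the median log2 difference of the members was thus 0.92 for fum replicate 3 over met replicate 1 but 0.36 for fum replicate 2 over met replicate 2.

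The members' deviations within groups ran alongside each other. Because the rule asks that groups do not overlap, it bears on these deviations too, and the values describe the chosen probe sets only. Each member's 8 deviations from its group means correlated with the median deviations of the other members at a median Pearson r of 0.61, and r was above 0 for 117 of 129 (90.7%). For the other 6275 probe sets with a met mean of at least 100 the median r with the members was 0.085, and 55.3% were above 0. FATB, ACLA-1 and PRA1.B4 followed the shared pattern little, at 0.085, 0.16 and 0.19. AT1G75280 and XTH18 did not, at -0.072 and -0.12, and the lowest r of any member was -0.74. AT2G04400 and MSRB3 followed it closely, at 0.95 each. For the 3 single-gene members with the highest fum signal, the probe sets most alike in their deviations were AT1G04770 for AT5G13200 (r = 0.96), 253943_at for XTH18 (r = 0.99) and rpl22 for AT5G12010 (r = 0.997, 8 arrays each). None of these matches is a member, and each r is the highest found among probe sets with a met mean of at least 100.

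Control signals differed between the same arrays. The 25S ribosomal RNA control read 3901, 3529, 157.6 and 2806 in fum against 824, 1305, 4491 and 4202 in met, so it was lowest on fum replicate 3, where 79 members were highest. Of the met arrays it was low both on replicate 1, where 64 members were lowest, and on replicate 2, where 83 were highest. The ratio of 3′ to 5′ actin signal was 1.92 to 2.39 on all arrays except met replicate 1, where it was 12.01. The geometric mean of 9 hybridization control probe sets was 223 to 375 in fum and 347 to 533 in met. The part of these signals in the members' differences was not tested. The 5 arrays of high 25S signal, a division chosen after the data were seen, were fum replicates 1, 2 and 4 and met replicates 3 and 4. Within them 83 of the 129 members met the rule, their median log2 difference was 0.62 and 32 were below 0.5. The same arrays chose the members, so nothing is read from these values about the 25S signal. RCA, the 1 measured leaf marker, read 382.7 to 464.4 in fum and 470.5 to 588.3 in met, and the root hair markers EXPA7 and EXPA18 lay between 1.90 and 34.4 on all arrays. No defining marker of callus or suspension cells was read, and markers of tracheary elements and of seeds had no probe set of their own here.

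Other scalings moved members across the thresholds in different ways. With each array centred on its median, 65 of 129 members met the rule and 67 had groups that did not overlap, although all 129 kept a higher fum mean and the median difference was 0.59. After quantile normalization 119 members met the rule and 127 had groups that did not overlap. With 16 added to each signal 108 met it, and all 129 kept groups that did not overlap while 21 differences were below 0.5. In the folding and ER group, 2 of 10 genes met it after median centring, compared with 5 of 7 in vesicle traffic. Leaving out met replicate 1 left 94 members inside the thresholds and leaving out fum replicate 3 left 99, in both cases because 30 differences dropped below 0.5 and, without met replicate 1, 5 reached 1.

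**Figure D5:**
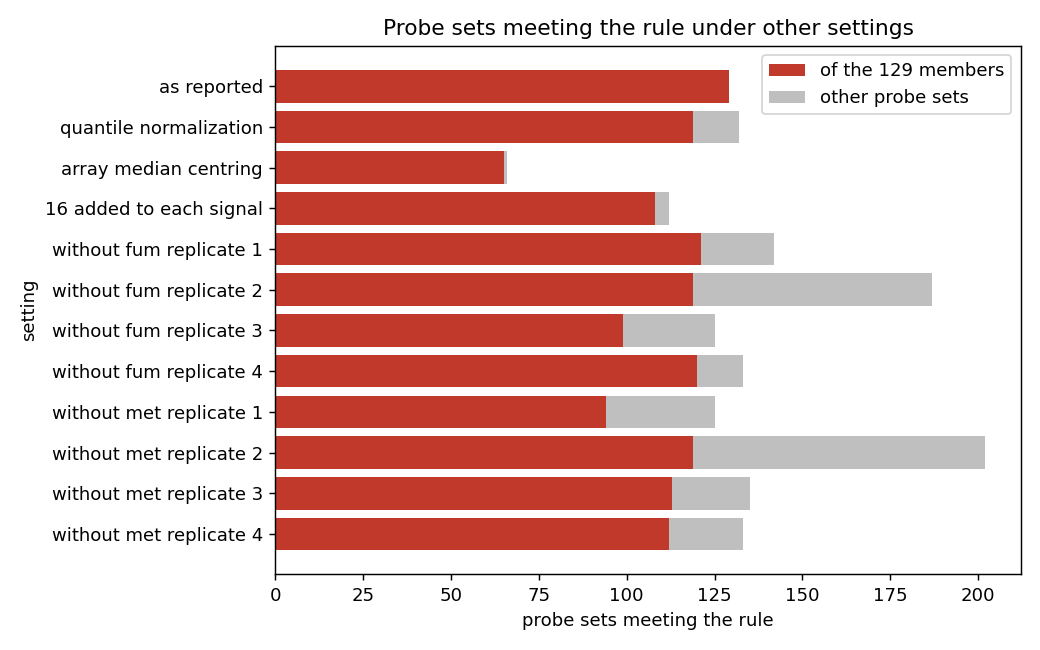
Number of probe sets that met the rule as reported and under 11 other settings, with the 129 members red and further probe sets grey. The bar for array median centring is shortest, with 66 probe sets, and the bar without met replicate 2 is longest, with 202.

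All 3 other scalings kept 62 members inside the thresholds and all 8 omissions of 1 array kept 60. Under every one of these 11 settings, 42 members met the rule, of which 19 have 1 gene. They include AT4G16660, PRA1.B4, AT2G43160, AT1G13340, AT4G24160, AT2G37540, AT3G09570, AT5G13200 and BIGYIN. These settings reuse the 8 arrays that chose the members, so they describe how near each member lies to the thresholds.

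In the genome, the 68 genes were spread over all 5 chromosomes. Chromosome 4 held 17 of them and chromosome 2 held 15 (22.1%), whereas of 3134 genes with a met mean of at least 100 these chromosomes held 15.5% and 16.05%. Chromosome 3 held 11.8% of the members' genes and 19.8% of the 3134. Only XTH18 with XTH19, and AT2G04305 with AT2G04400, lay within 10 genes of each other. The genes spanned a median of 2455 bp, close to the 2280 bp of all single-gene probe sets with a met mean of at least 100.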

How the data were processed

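Biotin-labelled total RNA from cultured cells was hybridized to 8 expression arrays. The authors deposited linear signal intensities, made with MAS5 per the submitters' processing notes, and its version and settings are not given in the sources used here. The mean between the 2nd and 98th percentile was 99.5 to 99.8 on each array. The 64 control probe sets were left out, 93 values of 0 were raised to 0.1, and intensities were taken to log2 with no further normalization.

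The rule was applied to 22746 probe sets. Genes come from the supplied annotation (13513 probe sets with 1 gene, 503 with several), and all 68 single-gene members matched the RefSeq gene table (TAIR10.1), used only for names and gene order. Members, role groups and the 23 gene lists were chosen with earlier results of these data known. A list is read from each gene's brightest unshared probe set.

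Probe sets with a mean above the 40th percentile (signal 21.1), 13647 in all, were tested with limma 3.58.1 in R 4.3.3 (trend, group as the only term, two-sided, Benjamini-Hochberg over all). The procedure was tested on simulated data. Named members are the 10 single-gene members of highest fum signal, the 10 of largest difference, list members and those in shared role groups; further members named were chosen after their values were seen. Alternatives were other scalings, filters, variance models, array weights, a replicate block and omissions of each array. The number of arrays limits the precision.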

Additional observations from a re-analysis of the deposited data

Results flagged for a closer look

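In 172 groups of 4 arrays, for the 68 single-gene members and the named list genes, 13 held 1 array far from the others by Dixon's test, where chance gives about 1 in 20 groups. Low arrays in met were replicate 1 of DER1 at 193.1 (others 291.8 to 309.7), of AT5G12010 at 400.5 (710.3 to 795), of AT4G38710 at 219.9 (406.9 to 421.2) and of UBA1A, an RNA-binding protein gene, at 93.4 (122.2 to 126.2). Low arrays in fum were replicate 2 of AT4G36750 at 279.1 (others 359.1 to 374.4), of AT3G49130 at 148.3 (197.7 to 205.2), of NET2D at 213.1 (305.1 to 310.9) and of BZIP28, not a member, at 344.6 (417.1 to 422.6). Each of these 3 fum members nevertheless lay above all met arrays, by choice.

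High arrays were fum replicate 3 of XTH19 at 209.7 (others 154.4 to 158.5) and met replicate 2 of AT1G65690 at 569.7 (375 to 399.5), of AT3G06780 at 135.4 (92.6 to 94.7) and of UGT73B5, not a member, at 53 (40.9 to 42.7). Met replicate 1 of AT5G66120, not a member, was high at 976.3 (737.1 to 770.2).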

How the results depend on the processing

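Of 13647 probe sets, limma called 351 (200 higher, 151 lower). This count was 116 after array median centring (64 higher), 164 without the intensity trend, 1323 with array weights and 115 with the replicate block, and 112 to 416 when 1 array was left out. Without fum replicate 1, 3 or 4 it was 175, 167 and 112, and without met replicate 3 or 4 it was 154 and 151. Of 114 tested list genes that are not members, 9 were called (8 higher and 1 lower): GSTU25, a glutathione transferase gene (adjusted p = 0.0159), and the 8 genes called above, of which the 3 COPI genes met the thresholds of the rule. This count was 4 after median centring, 5 without the trend, 21 with array weights and 4 with the replicate block, and 3 to 9 with 1 array left out, where fum replicates 1 and 4 and met replicate 4 gave 5, 3 and 4, and fum replicates 2 and 3 and met replicate 3 gave 6 each. GSTU25 did not pass when fum replicate 4 (adjusted p = 0.0682) or met replicate 4 (0.0505) was omitted, and UGT73B4 did not after quantile normalization (0.0503). UGT71B1 was not among the probe sets tested at the stricter filter. The cause of these moves was not tested. AT3G60540 and AT1G29310 passed under every alternative run.

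The rule was met by 66 probe sets after median centring and by 125 to 202 when 1 array was left out, with 202 without met replicate 2. Within the 3 arrays of low 25S signal, a division chosen after seeing the data with 1 fum array, 371 met it and the members' median log2 difference was 0.76; with so few arrays groups overlap less readily, and nothing is read from these values. The median was 0.58 to 0.68 under the other settings. The deviations of same-numbered arrays from their group means correlated at r of -0.17, -0.30, -0.47 and 0.14 for numbers 1 to 4. Deviations within a group depend on each other, so these values cannot show whether the replicate numbers pair the arrays.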
